A study of Homo sapiens with 12 samples.

Results

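RNA levels of KG-1 and MOLM-14, both cell lines grown from acute myeloid leukaemia, were compared in their control state, after 96 h in medium with the solvent DMSO alone. The comparison takes the 3 KG-1 DMSO and 3 MOLM-14 DMSO libraries, 6 of the 12 libraries of the study, and every gene with at least 1 FPKM in at least 3 of these 6. FPKM counts sequenced fragments per transcript length and per library size, so a level is relative to its own library. Of the 13863 genes listed, 12867 met this rule and were tested, 11265 of them protein-coding. The other 6 libraries came from the same lines after 96 h with ASLAN003, an inhibitor of the pyrimidine synthesis enzyme DHODH, and are used here only to see whether a difference between the lines recurred in libraries that did not enter it. All cells grew in RPMI1640 with fetal bovine serum. Each group stands for 1 cell line, and the labels call the treatments triplicated without naming separate cultures, so a p-value here covers the spread among 3 libraries of a line, and that spread may be technical. Differences below are KG-1 minus MOLM-14 in log2(FPKM + 1), a scale on which changes of weakly expressed genes come out too small. A gene was called at an adjusted p under 0.05 in limma with Benjamini-Hochberg adjustment over all tested genes, and 2-fold means a called difference of at least 1 on that scale.

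Acute myeloid leukaemia arises from blood progenitors that stop maturing at different steps, and cell lines keep much of the programme of the step at which they stopped. MOLM-14 is known for a fusion of KMT2A with MLLT3, which maintains transcription of the HOXA genes and MEIS1, and for an internal tandem duplication of the receptor FLT3, which signals through STAT5 and RAS. KG-1 is known as a line of immature cells with the progenitor surface protein CD34 and a fusion that carries the kinase part of FGFR1.

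The libraries labelled MOLM-14 had high levels of FLT3 and HOXA9, for which that line is known, whereas those labelled KG-1 had CD34 near 0 and FGFR1 below the other line. CD34 (chromosome 1) was listed at 0.12, 0.12 and 0.04 FPKM in the libraries labelled KG-1 and at 0.05, 0.01 and 0.09 in those labelled MOLM-14, so it was near 0 in all 6 and was not tested. FGFR1 was at 4.49, 4.1 and 4.14 FPKM in the libraries labelled KG-1 and at 63.32, 59.91 and 51.35 in those labelled MOLM-14. The groups did not overlap, and the lower values were in the line known for an FGFR1 fusion (difference -3.49, SE 0.12, limma adjusted p = 1.07e-07). HLA-DRA, the alpha chain of the MHC class II molecule HLA-DR, was at 0.54, 0.15 and 1.78 FPKM in KG-1 and at 1.87, 3.06 and 5.11 in MOLM-14 (limma adjusted p = 0.0155, and 0.0571 or 0.0606 without KG-1 DMSO replicate 1 or 2). PRAME, a tumour antigen, was at 4.72, 5.94 and 4.08 FPKM against 0.38, 0.3 and 0. The FLT3 level was 18.24, 17.47 and 19.83 FPKM in KG-1 and 96.3, 99.79 and 107.55 in MOLM-14, a difference of -2.39 (SE 0.09, limma adjusted p = 1.71e-07). The values of CD34 and FGFR1 go against the label KG-1. Among the other genes used to check the labels, HLA-DRA was also lower in KG-1, whereas PRAME was higher there. CSF1R, chosen as a MOLM-14 gene, was higher in KG-1 (difference 0.90, SE 0.23). The cause of these values was not tested. KG-1 therefore stands below for the libraries labelled KG-1, and directions are those of the labels.

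**Figure D1:**
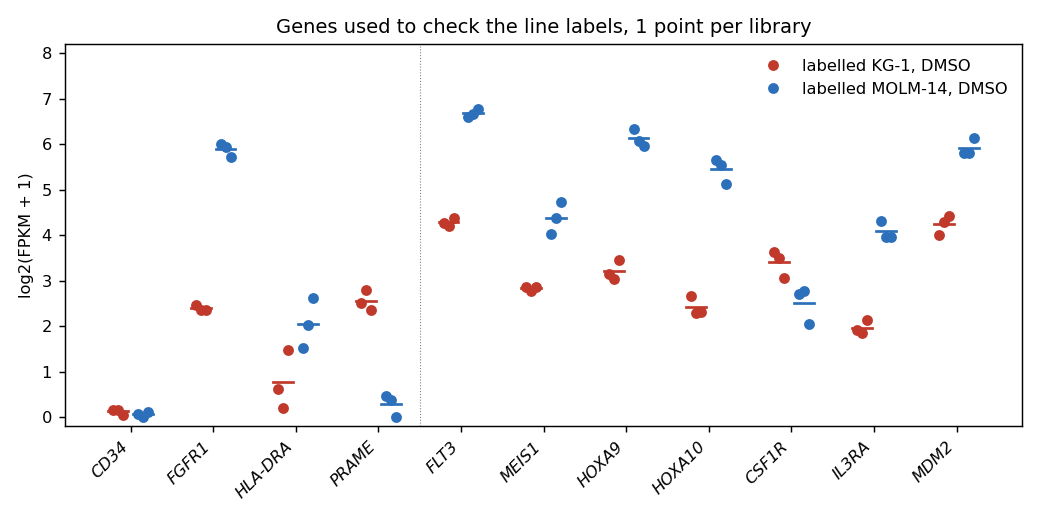
Levels of the genes used to check the line labels, as log2(FPKM + 1) with 1 point per DMSO library and a bar for the mean of 3. Genes left of the dotted line were chosen for KG-1 and those right of it for MOLM-14, and CD34 lies near 0 in all 6 libraries.

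The libraries separated by line before anything else. The leading principal component held 84% of the variance and split the lines, and the next held 6.52%, on which MOLM-14 replicate 3 lay at -31.95 against 20.87 and 11.57 for the other MOLM-14 libraries. Correlations between libraries of 1 group were at least 0.972, and none between the lines exceeded 0.859. The median SD of a gene was 0.127 in KG-1 and 0.174 in MOLM-14 on the log2 scale. Cytosolic ribosomal protein genes made up 25.6% to 26.8% of the listed FPKM in KG-1 and 33.7% to 34.4% in MOLM-14. Rescaling without ribosomal protein genes and other abundant RNA classes shifted the median difference over all genes by -0.016. Median centring and quantile normalization shifted it by -0.056 and -0.070. Both bring the library medians together by construction, so their shifts do not measure the effect of this share.

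Of the 12867 tested genes, 7425 (57.7%) were called, 4066 of them higher in KG-1 and 3359 higher in MOLM-14. That excess toward KG-1 depended on the scaling, since median centring gave 3695 against 3718 and quantile normalization 3721 against 3765. At 2-fold, 1498 genes (11.6%) were higher in KG-1 and 1170 (9.09%) higher in MOLM-14, and these shares are the background for every count below. The 3 libraries of the lines did not overlap for 8262 genes (64.2%). At 8-fold, 173 genes were higher in KG-1 and 99 higher in MOLM-14. The median difference over all tested genes was 0.06.

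The KMT2A fusion targets and HOXA genes were higher in MOLM-14. Of 20 tested members of this list, 11 were at least 2-fold higher in MOLM-14 and 0 higher in KG-1, with a median difference of -1.42. HOXA9, a homeobox factor that keeps progenitors self-renewing (GRCh38 chromosome 7, 27162435 to 27175180, minus strand), was at 7.82, 7.15 and 9.92 FPKM in KG-1 and at 79.96, 66.27 and 61.42 in MOLM-14. All MOLM-14 values lay above all KG-1 values, a difference of -2.92 (SE 0.14, limma adjusted p = 7.98e-07). HOXA10 was at 5.32, 3.92 and 3.94 FPKM against 49.6, 45.83 and 34.01. Its DNA-binding partner MEIS1 differed less, at 6.26, 5.79 and 6.28 FPKM against 15.18, 19.7 and 25.49 (difference -1.54, SE 0.18). The largest difference of the list was that of RUNX2, a skeletal and blood transcription factor, at 0.08, 0.14 and 0.02 FPKM against 10.03, 14.37 and 11.74. RUNX2 is among the 11, but it met the filter through its MOLM-14 values alone, so its direction was set by the filter. Not all members followed. The cofactor PBX3 (adjusted p = 0.68) and MEF2C (adjusted p = 0.098) were not called in limma, and CPEB2 was called slightly higher in KG-1 (difference 0.55). Of 6 HOXB genes in the table, which form a separate cluster on chromosome 17, 2 were tested. HOXB7 was at 2.97, 4.68 and 4.74 FPKM in KG-1 and 0, 0 and 0.05 in MOLM-14. HOXB3 was at 4.28, 4.03 and 4.59 against 0.1, 0.08 and 0.13. Both met the filter through their KG-1 values alone, so their direction was set by the filter and is no contrast with the HOXA genes.

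Genes of neutrophil and eosinophil granules were higher in KG-1. Of 23 tested members of the granule list, 16 were at least 2-fold higher in KG-1 and 2 higher in MOLM-14, with a median of 1.91. MPO, the peroxidase of primary granules, was at 171.98, 140.92 and 167.99 FPKM in KG-1 and at 25.06, 19.37 and 17.89 in MOLM-14 (difference 2.90, SE 0.13, limma adjusted p = 5.20e-07). The calprotectin subunit S100A9 was at 880.8, 846.69 and 598.62 FPKM against 110.55, 72.53 and 65.69. BPI, which binds bacterial endotoxin, was at 48.12, 40.43 and 45.46 FPKM against 2.4, 3.01 and 2.57. PRG2, the major basic protein of eosinophils, had the largest difference toward KG-1 (4.02) and also the widest spread, at 57.75, 49.13 and 150.97 FPKM in KG-1. The protease gene PRTN3 was very abundant in both lines, at 4897.08, 4325.55 and 6377.49 FPKM in KG-1 and 906.15, 968.43 and 826.49 in MOLM-14. The cathepsin gene CTSG and the protease inhibitor gene CST7 went the other way, CTSG at 92.85, 91.8 and 84.44 FPKM against 643.13, 544.98 and 500.19. AZU1, which lies beside PRTN3 on chromosome 19, was at 1449.16, 1245.79 and 1746.41 FPKM against 1385.28, 1269.34 and 1071.68, and the groups overlapped. CAMP, a peptide of secondary granules, was low in both lines, between 1.03 and 5.71 FPKM in KG-1 and at most 0.19 in MOLM-14 (difference 1.84), and the defensin genes DEFA1 and DEFA3 were listed at 0 in all 6 libraries. CAMP met the filter through its KG-1 values alone, so its direction was set by the filter.

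Promoter windows of the granule genes are shown because several hold the letters TTGCNNAA, a core bound by C/EBP factors, on either strand. Windows of 300 bases (250 before and 50 after the annotated start, RefSeq, GRCh38.p14) were matched for 9625 of the 12867 tested genes and 15 of the 23 granule genes. Both strands were read for 6 motifs in 5 gene lists (TTGCNNAA, the ETS core GAGGAAGT, the CCAAT box, the TATA box TATAAA, the sterol element TCACNCCAC and the HOX-PBX core TGATTNAT), and this motif was singled out after the counts were seen, as were the 4 genes shown. It was present in 7 of the 15 granule windows (46.7%), in 6.88% of the windows of all tested genes and in 10.6% of all windows in the table. Such a match is a description and not a measured binding site. Capitals mark the matches in 4 windows, for the neighbours PRTN3 (chr19:840749-841048, plus strand) and AZU1 (chr19:827587-827886, plus strand), for MS4A3 (chr11:60056415-60056714, plus strand) and for S100A12 (chr1:153375572-153375871, minus strand), all 5′ to 3′. The matches in PRTN3, AZU1 and S100A12 and the upstream match in MS4A3 are on the opposite strand, so the printed letters are the reverse complement of the motif, and the match in PRTN3 overlaps a CCAAT match.
PRTN3: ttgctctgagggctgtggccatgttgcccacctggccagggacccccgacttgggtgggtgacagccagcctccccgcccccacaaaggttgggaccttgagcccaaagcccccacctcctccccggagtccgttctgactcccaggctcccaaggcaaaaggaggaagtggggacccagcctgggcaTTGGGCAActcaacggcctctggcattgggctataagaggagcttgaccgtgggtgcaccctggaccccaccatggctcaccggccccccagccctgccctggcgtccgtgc
AZU1: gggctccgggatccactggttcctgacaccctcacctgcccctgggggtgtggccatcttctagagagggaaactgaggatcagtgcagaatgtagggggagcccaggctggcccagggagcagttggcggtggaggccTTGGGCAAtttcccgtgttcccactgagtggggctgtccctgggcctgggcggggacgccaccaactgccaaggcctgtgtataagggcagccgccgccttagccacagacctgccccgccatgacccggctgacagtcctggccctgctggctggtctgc
MS4A3: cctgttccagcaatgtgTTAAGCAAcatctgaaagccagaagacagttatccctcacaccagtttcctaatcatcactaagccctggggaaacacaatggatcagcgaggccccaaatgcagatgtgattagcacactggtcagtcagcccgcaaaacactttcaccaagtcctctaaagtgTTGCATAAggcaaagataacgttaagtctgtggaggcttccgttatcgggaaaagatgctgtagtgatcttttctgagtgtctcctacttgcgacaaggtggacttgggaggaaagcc
S100A12: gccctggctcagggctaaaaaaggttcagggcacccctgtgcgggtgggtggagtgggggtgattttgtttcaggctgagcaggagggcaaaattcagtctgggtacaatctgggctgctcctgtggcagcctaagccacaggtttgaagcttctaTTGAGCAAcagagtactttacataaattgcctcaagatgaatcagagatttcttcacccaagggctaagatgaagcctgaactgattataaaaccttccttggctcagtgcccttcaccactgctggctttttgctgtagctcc
PRTN3 and AZU1 hold the same 8-letter match, 62 and 111 bases before the annotated start, although PRTN3 differed by 2.51 between the lines and AZU1 was not called (difference 0.25, limma adjusted p = 0.14). MS4A3, a membrane protein of granulocyte progenitors, has 2 matches and was at 193.29, 179.08 and 225.18 FPKM in KG-1 and 21.22, 14.46 and 14.89 in MOLM-14. The granule windows were also poor in CpG, with a median of 5 against 27 over all tested genes, and the monocyte list had a median of 4.

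Monocyte and macrophage genes were more often higher in MOLM-14, and some were higher in KG-1. Of 21 tested members, 9 were at least 2-fold higher in MOLM-14 and 3 higher in KG-1, with a median of -0.56. LYZ, the lysozyme of phagocytes, was at 83.69, 88.68 and 102.78 FPKM in KG-1 and 682.36, 657.25 and 682.07 in MOLM-14 (difference -2.87, SE 0.08, limma adjusted p = 4.48e-08). CD93, a receptor of immature myeloid cells, was at 0.14, 0.14 and 0.07 FPKM against 24.69, 21.81 and 22.92. It met the filter through its MOLM-14 values alone, so its direction was set by the filter. The inhibitory receptor gene LILRB4 was at 1.22, 1.44 and 2.34 FPKM against 36.21, 43.38 and 35.44. The other direction was seen in ITGAM, the CD11b integrin chain, at 7.52, 9.5 and 8.44 FPKM against 4.46, 4.01 and 2.42, and in CCR2 and TLR4. CSF1R, chosen as a MOLM-14 gene, was called higher in KG-1 (difference 0.90, limma adjusted p = 0.00944). CD14, the defining monocyte co-receptor, was at most 0.49 FPKM in KG-1 and 0.85 in MOLM-14 and was not tested, and VCAN and FCN1 were also below 1 FPKM in all 6 libraries.

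Among 22 tested transcription factors of the myeloid lineage, 3 were at least 2-fold higher in KG-1 and 8 higher in MOLM-14, with a median of -0.63. CEBPE, which drives late granulocyte maturation (chromosome 14, 23117304 to 23119616, minus strand), was at 50.2, 50.2 and 44.52 FPKM in KG-1 and 0.99, 1.34 and 0.59 in MOLM-14 (difference 4.66, SE 0.16, limma adjusted p = 1.37e-07). IRF8, a factor of monocyte and dendritic cell fate, had the opposite pattern, at 87.27, 78.51 and 67.04 FPKM against 444.17, 449.26 and 374.04. CEBPA was at 161.39, 157.86 and 144.9 FPKM against 312.47, 307.79 and 281.28. The master regulator SPI1 (PU.1) was at 131.01, 123.94 and 114.7 FPKM against 117.18, 127.57 and 101.13, with overlapping groups, and GFI1 and CEBPD were not called either. GATA2 and ID1 (difference 2.67) were higher in KG-1, and ID2 (-2.45) and NFE2 (-1.51) higher in MOLM-14.

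Growth factor receptors and the feedback genes of their pathways were more often higher in MOLM-14. Of 33 tested receptors, 11 were at least 2-fold higher there and 3 in KG-1, with a median of -0.44. IL3RA, the interleukin-3 receptor alpha chain, was at 2.79, 2.59 and 3.42 FPKM against 18.98, 14.57 and 14.61, and the chemokine receptor CXCR4 at 24.8, 23.77 and 24.64 against 90.53, 102.49 and 106.7. The receptors higher in KG-1 were led by CCR7, at 30.47, 25.85 and 24.4 FPKM against 0.22, 0.28 and 0.03, and IL18R1. Of 26 RAS-MAPK and STAT5 feedback genes, 11 were higher in MOLM-14 and 3 in KG-1, with a median of -0.79. The STAT5 target CISH was at 8.69, 7.49 and 5.76 FPKM against 23.52, 30.31 and 28, the kinase gene PIM1 at 3.07, 2.29 and 2.65 against 10.74, 18.92 and 11.58, and the cytokine signal suppressor SOCS1 at 0.41, 0.1 and 0.25 against 8.64, 12.56 and 7.28. The RAS brake SPRY1 was the reverse, at 7.76, 7.81 and 7.65 FPKM against 0.39, 0.49 and 0.92.

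Some regulators of cell division and cell death were lower in KG-1. CDKN1A, the cell cycle inhibitor p21, was at 20.05, 19.36 and 17.58 FPKM in KG-1 and 160.07, 215.11 and 233.43 in MOLM-14, with no overlap. MDM2, a ubiquitin ligase, was at 14.93, 18.41 and 20.55 FPKM against 54.64, 55.21 and 69.32. The death receptor gene TNFRSF10B was at 11.59, 11.93 and 10.95 FPKM against 60.97, 62.47 and 60.87, and it lies on chromosome 8, whose genes were lower in KG-1 as a whole.

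A short run of chromosome 9 genes was near 0 in KG-1. MTAP, a methionine salvage enzyme (21802543 to 21937651, plus strand), was at 0.24, 0.05 and 0.35 FPKM in KG-1 and 17.15, 18.53 and 17.1 in MOLM-14 (difference -3.94, SE 0.16, limma adjusted p = 2.99e-07). KLHL9 on the same chromosome was at 0.04, 0.01 and 0.02 FPKM against 3.76, 3.32 and 4.62. CDKN2A, the neighbouring cell cycle inhibitor gene, was at most 0.29 FPKM in KG-1 and listed at 0 in the 3 MOLM-14 libraries. Further out, HACD4 was also lower in KG-1, at 0.76, 0.9 and 0.79 FPKM against 1.48, 1.63 and 2.33 (difference -0.62, limma adjusted p = 0.0184). Other genes further out were expressed in KG-1, with FOCAD at 8.55, 9.76 and 10.52 FPKM and TUSC1 at 8.8, 7.92 and 8.57, the latter against 1.33, 1.1 and 0.86 in MOLM-14. DNA copy number was not analysed here.

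Metabolic genes differed by pathway. Of 30 tested genes of cholesterol and fatty acid synthesis, 15 were at least 2-fold higher in KG-1 and 1 (PMVK) higher in MOLM-14, with a median of 1.08. HMGCS1, an early enzyme of the mevalonate pathway (chromosome 5, 43289395 to 43313512, minus strand), was at 329.84, 294.39 and 196.02 FPKM in KG-1 and 46.28, 40.08 and 51.63 in MOLM-14 (difference 2.52, SE 0.18, limma adjusted p = 9.39e-06). The fatty acid desaturase gene SCD was at 567.22, 514.85 and 424.82 FPKM against 177.92, 118 and 124.58. SREBF1, 1 of the regulators of lipid synthesis genes, was slightly lower in KG-1 (difference -0.41, limma adjusted p = 0.045). In the ASLAN003 libraries the same list had a median of -0.04, and HMGCS1 differed by -0.02. The change of the list's median was not tested.

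The pyrimidine synthesis list holds DHODH, the enzyme ASLAN003 inhibits, and also enzymes of nucleotide conversion and supply outside the pathway that it blocks. Its median absolute difference was 0.34, against 0.47 over all tested genes. Of 23 tested, 1 was at least 2-fold higher in KG-1 (NME4) and 2 higher in MOLM-14 (SHMT2, and RRM2B on chromosome 8), with a median of -0.11. DHODH, the drug's target, was at 14.42, 11.88 and 12.66 FPKM in KG-1 and 16.06, 16.24 and 15.03 in MOLM-14. The values did not overlap, but the gene was not called (difference -0.27, SE 0.12, limma adjusted p = 0.0795). CAD, TYMS and UMPS were not called. Of 20 salvage genes, which recycle nucleosides, 4 were higher in KG-1 and 2 higher in MOLM-14, and their median absolute difference was 0.43. CDA, which deaminates cytidine, was at 12.63, 10.27 and 12.57 FPKM against 0.09, 0.41 and 0.7, NT5E at 4.44, 4.21 and 3.67 against 0.13, 0.11 and 0, and UPP1 at 3.3, 3.38 and 2.49 against 0.27, 0 and 0. CDA, NT5E and UPP1 met the filter through their KG-1 values alone, so their direction was set by the filter. The phosphorylase gene TYMP was higher in MOLM-14, at 7.37, 8.38 and 7.65 FPKM against 41.28, 32.26 and 28.18. Of the glycolysis genes, 8 of 26 were higher in KG-1 and 2 in MOLM-14. PFKM, a phosphofructokinase, was at 20.49, 22.35 and 16.55 FPKM against 2.45, 0.52 and 1.63, and the glucose transporter gene SLC2A3 at 4.99, 4.58 and 5.11 against 33.52, 31.95 and 31.73. Cytosolic ribosomal protein genes had 12 of 82 higher in MOLM-14 and 0 in KG-1, with a median of -0.44.

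Cell division genes leaned toward KG-1 in mitosis but not in DNA replication. Of 25 mitosis genes, 5 were at least 2-fold higher in KG-1 and 0 in MOLM-14, with a median of 0.55, and the spindle kinase gene TTK was at 32.13, 41.65 and 40.39 FPKM against 18.14, 13.16 and 13.52. Of 33 replication genes, 2 were higher in MOLM-14 (MCM4 and GINS4, both on chromosome 8) and 0 in KG-1. Of 44 chromatin enzymes, 2 were higher in each line. TET1, which oxidises methylated cytosine, was at 8.22, 8.23 and 8.99 FPKM against 0.15, 0.26 and 0.05, and the histone demethylase gene KDM6A at 0.29, 0.22 and 0.11 against 7.71, 7.75 and 5.76.

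**Figure D2:**
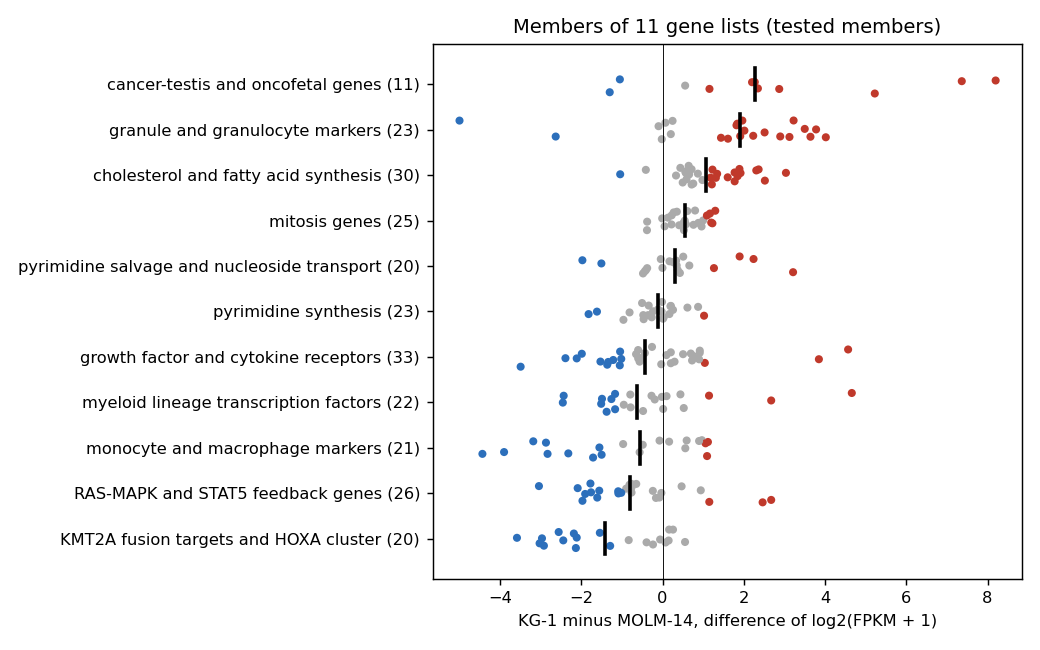
Difference between the lines for the tested members of 11 gene lists, 1 point per gene, in units of log2(FPKM + 1), with the number tested in brackets and a black bar at the median. Red and blue points were called at least 2-fold higher in KG-1 and MOLM-14, and grey points were not. The granule list has its median at 1.91 and the KMT2A and HOXA list at -1.42.

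Few markers of other blood cells and of non-blood cells were high enough to test, and their part in the other differences was not tested. Of the erythroid markers, 1 of 6 tested was higher in each line, and of the lymphoid markers 2 of 5 were higher in KG-1 and 3 in MOLM-14, led by NCAM1 at 1.76, 1.96 and 2.92 FPKM against 33.19, 40.35 and 32.9. CD3D was at most 0.22 FPKM in KG-1 and listed at 0 in MOLM-14. Of 4 tested platelet markers, 3 were higher in KG-1, with GP1BB at 14.68, 19.21 and 10.28 FPKM against 0 in all 3. GP1BB met the filter through its KG-1 values alone, so its direction was set by the filter. Of 5 tested markers of non-blood cells, 3 were higher in KG-1 and 1 in MOLM-14, including the collagen gene COL1A1 at 6.3, 7.52 and 6.56 FPKM against 0.49, 1.39 and 1.11.

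Surface and immune genes were split between the lines. Of 28 tested integrin and adhesion genes, 6 were at least 2-fold higher in KG-1 and 4 in MOLM-14. ITGAL, the alpha chain of the integrin LFA-1, was at 10.24, 10.36 and 12.71 FPKM in KG-1 and 124.83, 156.87 and 151.41 in MOLM-14, and its ligand gene ICAM1 was also higher in MOLM-14. The tetraspanin gene CD9 was the reverse, at 29.31, 30.71 and 32.36 FPKM against 2.57, 3.92 and 3.6. Innate immune receptors had 7 of 30 higher in KG-1 and 9 in MOLM-14. FCER1G, the signalling chain of several antibody receptors, was at 65.31, 75.2 and 74.79 FPKM against 5.46, 3.28 and 0.77. The inhibitory receptor gene CD300LF was at 0.34, 0.82 and 0.4 FPKM against 14.76, 13.26 and 15.87. Chemokine, interleukin and NF-kB genes had 5 of 22 higher in KG-1 and 6 in MOLM-14, led by TNF and TNFSF13B toward MOLM-14 and CCL2 toward KG-1. Of 27 interferon-stimulated genes, 4 were higher in KG-1 and 3 in MOLM-14, with IFITM1 at 41.49, 36.03 and 24.54 FPKM against 4.84, 2.87 and 7.41. Among 16 MHC class I genes 3 were higher in each line, HLA-B in MOLM-14 (difference -1.70) and TAP2, a peptide transporter gene, in KG-1 (1.42). Fragments can be split among the similar HLA genes. Of the 7 tested members of the MHC class II list, 1 (HLA-DRA) was called at 2-fold. HLA-DOB, a class II beta chain gene outside that list, was at 0, 0 and 0.04 FPKM in KG-1 and 7.84, 7.84 and 6.81 in MOLM-14.

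The remaining lists differed in fewer members or in both directions. Of 21 SRC family and nearby kinases, 6 were at least 2-fold higher in MOLM-14 and 0 in KG-1. Of these 6, LYN, PTK2 and PTK2B lie on chromosome 8, and without that chromosome 3 of 18 were higher in MOLM-14, with FYN at 0.99, 0.59 and 0.44 FPKM against 18.41, 12.46 and 16.17. Of 13 stem and progenitor markers, 3 were higher in KG-1 and 4 in MOLM-14, among them the STAT5 target SOCS2 at 34.44, 38.44 and 32.42 FPKM against 123.37, 125.2 and 114.53. Of 16 BCL2 family genes, 1 was higher in KG-1 (BCL2L1, which blocks cell death) and 2 in MOLM-14 (BMF and BCL2L11, which promote it). BMF was at 2.15, 1.27 and 1.63 FPKM against 14.86, 19.19 and 19.86. WNT and NOTCH genes had 3 of 19 higher in KG-1 and 5 in MOLM-14, and SFRP5, a secreted WNT inhibitor, was at 18.07, 14.7 and 14.94 FPKM in KG-1 and listed at 0 in MOLM-14. Of 22 cell cycle regulators, 1 was higher in KG-1 (CDKN1C) and 5 in MOLM-14. Amino acid and one-carbon enzymes had 3 of 32 higher in KG-1 and 5 in MOLM-14, and ASS1, which makes argininosuccinate, was at 73.08, 65.91 and 67.85 FPKM against 447.01, 328.36 and 336.05. Of 27 aldehyde, glutathione and xenobiotic enzymes, 8 were higher in KG-1 and 2 in MOLM-14, with the aldehyde dehydrogenase gene ALDH2 at 194.46, 191.93 and 171.14 FPKM against 21.24, 24.05 and 27.69. Of 12 drug transporters, 2 were higher in KG-1 and 0 in MOLM-14. The 13 mitochondrially encoded genes had 0 at 2-fold in either direction.

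Several genes were present in 1 line and near 0 in the other. At a limit of at least 5 FPKM in all 3 libraries of 1 line and at most 0.1 in all 3 of the other, 82 genes were found in KG-1 only and 20 in MOLM-14 only. TKTL1, a transketolase-like gene (chromosome X, 154295671 to 154330350, plus strand), led in KG-1 at 633.29, 651.62 and 594.85 FPKM and was listed at 0 in the 3 MOLM-14 libraries. PPP1R1B was at 241.8, 222.98 and 225.18 FPKM and listed at 0 in MOLM-14. The fetal RNA-binding gene LIN28B was at 33.02, 40.16 and 38.58 FPKM in KG-1 and at most 0.06 in MOLM-14. Of 38 cancer-testis and oncofetal genes listed, 12 were in the table and 11 tested. Of the tested ones, 8 were at least 2-fold higher in KG-1 and 2 in MOLM-14. A gene near 0 in 1 line, such as LIN28B, met the filter only through the other line, so this count partly follows from the filter. GSTM1 and ORM1 were also in this group, but both have closely similar copies among which fragments could be split. In MOLM-14, LAMP5 led at 86.69, 85.63 and 86.47 FPKM and at most 0.09 in KG-1, followed by the homeobox gene DLX5 at 25.2, 31.73 and 31.21 and 0 in KG-1.

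Neighbouring imprinted genes of chromosome 14 were found in KG-1 only. DLK1, a growth regulator expressed from the paternal copy (100725705 to 100738224, plus strand), was at 181.22, 184.88 and 131.42 FPKM, and the long noncoding RNA MEG3, expressed from the maternal copy (100779410 to 100861031, plus strand), at 294.11, 316.98 and 274.96. SNHG23 was at 11.63, 9.17 and 7.75 FPKM and MEG9 at 9.24, 10.47 and 9.86. In MOLM-14 these 4 genes were at most 0.02 FPKM. Of the flanking genes, PPP2R5C was not called, at 40.09, 38.27 and 42 FPKM against 39.76, 38.23 and 38.13, and WDR25 and YY1 were not called either. BEGAIN was higher in KG-1, at 6.97, 5.96 and 6.89 FPKM against 0.39, 1.09 and 0.67, as was DYNC1H1 (difference 0.55). SLC25A29 (-0.85) and WARS (-0.58) were called higher in MOLM-14.

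The largest difference toward MOLM-14 was that of PPP1R27, a phosphatase regulator (chromosome 17, 81833492 to 81835050, minus strand), at 7.28, 10.05 and 9.23 FPKM in KG-1 and 1470.43, 1588.11 and 1515.99 in MOLM-14 (difference -7.28, SE 0.11, limma adjusted p = 1.20e-09). BARX1, a homeobox gene, was at 0.09, 0.16 and 0 FPKM against 157.55, 149.78 and 131.87. MFNG, which modifies Notch receptors, was at 0.46, 0.4 and 0.2 FPKM against 101.57, 89.37 and 89.44, and the Notch ligand gene JAG1 was at 2.22, 2.48 and 2.31 against 46.12, 51.52 and 41.3. TRIM22, an interferon-induced gene, was at 0.92, 0.65 and 0.75 FPKM against 59.39, 74.91 and 61.09, and the cytokine gene TNF at 0.64, 0.54 and 0.53 against 36.73, 30.74 and 29.28. Toward KG-1, MEST was at 144.27, 135.08 and 150.24 FPKM against 0, 0.16 and 0.03, and the matrix protein gene SPARC at 173.59, 177.59 and 175.58 against 0, 1.62 and 0.

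Genes of chromosome 8 were mostly lower in KG-1. Of 423 tested genes there, 192 (45.4%) were at least 2-fold higher in MOLM-14 and 14 higher in KG-1, against the backgrounds of 9.09% and 11.6%. The median difference was -0.94, and 12.5% of the genes lay above 0. Chromosomes were divided into 10 Mb windows, and of the 233 with at least 20 tested genes the 10 on chromosome 8 had medians between -1.21 and -0.75. Other stretches of the chromosome held fewer tested genes and have no median here, and single genes went the other way, such as KHDRBS3 at 13.47, 15.21 and 11.29 FPKM in KG-1 and 0 in MOLM-14. Of the other 223 windows, 2 were as low as the highest of these, 1 of them at 130 to 140 Mb of chromosome 10 (-0.93). Chromosome 8 carries FGFR1, MYC (162.38, 153.85 and 128.3 FPKM against 292.19, 303.88 and 301.8), the adhesion kinase gene PTK2 (0.32, 0.82 and 1.49 against 28.34, 25.63 and 28.35) and RRM2B. In the ASLAN003 libraries the chromosome 8 median was -0.99. Medians of the other chromosomes ranged from -0.32 on chromosome 9 to 0.43 on chromosome X, and chromosomes 7 (0.39) and 3 (0.33) were also higher in KG-1. DNA copy number was not analysed here.

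**Figure D3:**
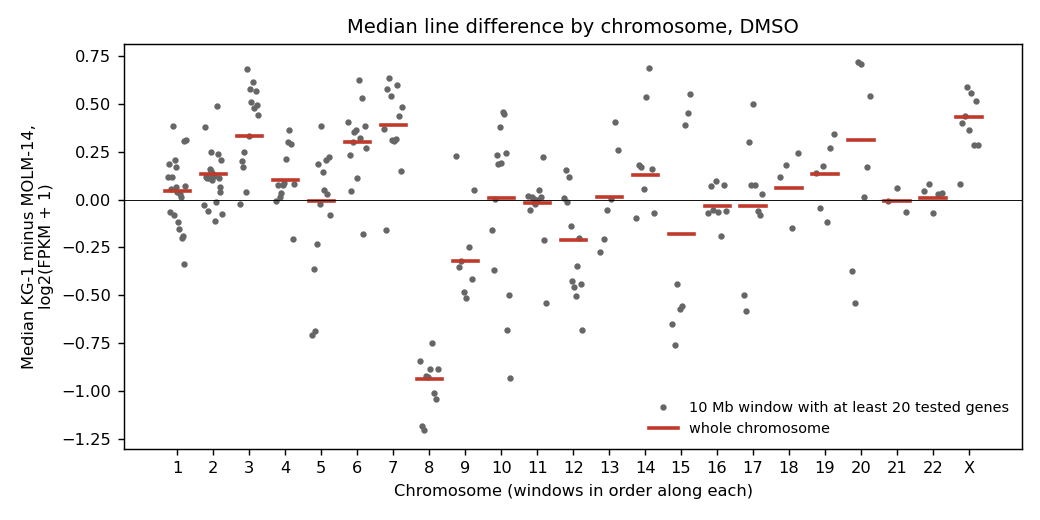
Median difference between the lines for each chromosome (red bar) and for its 10 Mb windows (grey points, in order along the chromosome), in units of log2(FPKM + 1). Chromosome 8 lies lowest, at -0.94, and its 10 windows with at least 20 tested genes lie at or below -0.75.

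Most 2-fold differences between the lines recurred after ASLAN003. The ASLAN003 libraries share no library with the DMSO comparison, and 2970 genes (23.1%) were at least 2-fold different between the lines there. Of the 2668 genes that differed at least 2-fold in DMSO, 2575 (96.5%) had the same sign in ASLAN003, 1868 were also called at 2-fold with that sign, and 12 were called with the opposite sign. Over all tested genes, 78.6% had the same sign. Medians of the lists did not all recur. In ASLAN003 the HOXA and KMT2A list had a median of -0.91 and the granule list 1.78. The receptor list had a median of 0.29 in ASLAN003 against -0.44 in DMSO, the glycolysis list -0.10 against 0.36, the myeloid transcription factors -0.13 against -0.63, and the SRC family list -0.02 against -0.32. These changes of list medians were not tested. The size of the difference changed for some genes, and the interaction term over all 12 libraries was called for 1275 of the 12867 tested genes. This count ranged from 715 (without KG-1 DMSO replicate 1) to 2295 (without MOLM-14 ASLAN003 replicate 1) when 1 library was left out.

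**Figure D4:**
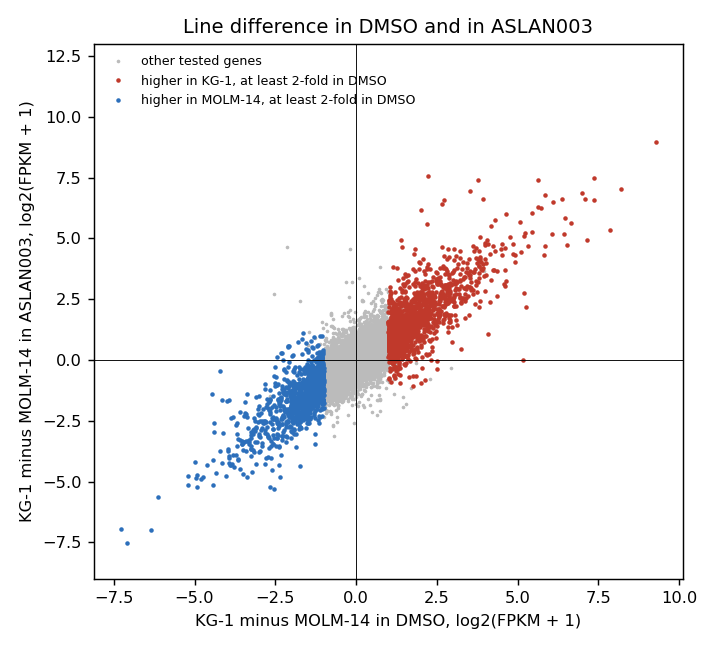
Difference between the lines in DMSO (x axis) and in ASLAN003 (y axis) for all 12867 tested genes, in units of log2(FPKM + 1). Coloured points differed at least 2-fold in DMSO, and 96.5% of them lie on the same side of 0 on both axes.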

How the data were processed

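A strand-specific total RNA kit was used, per the labels' protocols. The submitters' processing notes list RSEM 1.2.25, STAR 2.4.2a and bcl2fastq 2.17.1.14, and the build GRCh38. The authors deposited log2 values, which from their steps are log2(FPKM + 1) with FPKM rounded to 0.01. Positions come from GENCODE 29 (99.43% of identifiers found). Of 13881 rows, 18 chromosome Y copies identical to their X rows were left out, and 20 symbols turned into dates were restored. The table holds no read counts. Low values did not settle the depth: the best-fitting depth changed with the fragment length assumed (7 lengths tried), so depth is unknown and no counting interval is given.

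With limma 3.58.1 in R 4.3.3, group means were fitted to log2(FPKM + 1), a pseudocount of 1, for the 6 DMSO libraries, moderated with a mean trend and robust estimation, two-sided with Benjamini-Hochberg adjustment. The script was tested on simulated data. Lists were described by counts and medians without a set test. Chromosomes were taken whole and in 10 Mb windows. The rule named the 15 largest called differences per direction (mean of at least 5 FPKM in 1 line, no overlap), up to 4 members per list, up to 10 genes per line found there only, and genes fixed by name. Other members, promoter windows and neighbours were chosen after their values were seen. The members and lists were chosen with earlier results of these data known. Alternatives were other pseudocounts, filters, scalings, models, library weights, a replicate block, and fits without each library in turn. Some genes and 1 gene list are not reported here.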

Additional observations from a re-analysis of the deposited data

Results flagged for a closer look

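The limma interaction term over all 12 libraries was called for 1275 of the 12867 tested genes. Among the 20 tested genes fixed by name it was called for 4. Their difference between the lines was thus not the same in DMSO and in ASLAN003. For ITGAM the difference was 1.06 (SE 0.20) in DMSO and 2.84 (SE 0.24) in ASLAN003, a gap of -1.78 (adjusted p = 0.00597). For CEBPE it was 4.66 and 5.99, a gap of -1.33 (adjusted p = 0.00904, and 0.0665 with a pseudocount of 0.1). For FLT3 it was -2.39 and -1.73, a gap of -0.66 (adjusted p = 0.00749). For HLA-DRA it was -1.28 and -3.06, a gap of 1.78 (adjusted p = 0.0335), and this call was kept in 5 of 13 alternatives, with adjusted p up to 0.355. These alternatives were chosen after seeing the data.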

How the results depend on the processing

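The counts of called genes and of 2-fold genes in DMSO and in ASLAN003 stayed within 1.5 times the reported ones under every alternative run. In DMSO, the called genes numbered 6341 to 7531 when 1 library was left out. As deviations from the mean of their line, same-numbered libraries correlated at 0.0673, -0.0051 and 0.0755, and differently numbered ones between -0.0953 and 0.0434. With 3 libraries per line these small values cannot settle whether the replicate numbers pair the samples. With the replicate block 7362 genes were called. Of the 158 called genes named by the rule, 1 (HLA-DRA) lost its call in any of 16 alternatives and 0 changed sign. Most of them were named for large differences in these same libraries, so their calls were likely to be kept. DHODH gained a call with median centring (adjusted p = 0.0457) and quantile normalization (adjusted p = 0.0478).

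Genes found in 1 line only depended on the limits. At 2 and 0.2 FPKM there were 197 in KG-1 and 81 in MOLM-14, and at 10 and 0 FPKM 20 and 2. The chromosome 8 median was -1.03 with a pseudocount of 0.1, -1.027 with a filter at 5 FPKM, -0.99 with median centring and -1.015 with quantile normalization. The interaction count of 1275 ranged from 715 to 2295 when 1 library was left out. It moved by over 1.5 times without KG-1 DMSO replicate 1 (715) or 2 (756), KG-1 ASLAN003 replicate 1 (730) or 2 (802), MOLM-14 DMSO replicate 2 (845) or MOLM-14 ASLAN003 replicate 1 (2295). The alternatives for chromosome 8 and for the interaction were chosen after seeing the data. The medians of 3 of 35 lists changed sign in some alternative: interferon-stimulated genes, the BCL2 family and WNT and NOTCH genes. Beyond sign, 38 of 559 list medians under the alternatives moved by more than the spread between replicates, most often with the filter at 5 FPKM, quantile normalization or a pseudocount of 0.1. The largest shift, 2.52, was that of the HOXB list of 2 tested genes with a pseudocount of 0.1. The cause was not tested.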
